A study of Mus musculus with 6 samples.

Results

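Ribosomal proteins are the protein parts of the 2 kinds of ribosome in a human cell, and their transcripts were followed here in lung tumour xenografts 6 h after an oral dose of the ALK inhibitor CH5424802. The cytosolic set holds genes whose symbol is RPL or RPS with a number and an optional paralog suffix, with RPLP0, RPLP1, RPLP2 and RPSA where they had a probe set of their own. The mitochondrial set holds the MRPL and MRPS genes. S6 kinases, pseudogenes, antisense transcripts and readthrough genes were left out. Each gene was represented by its brightest single-gene probe set, and 57 of 61 cytosolic and 72 of 75 mitochondrial genes had a mean log2 intensity of at least 4, which makes 129 members among 10271 tested genes. The lowest member kept was at a mean log2 of 4.92 in the cytosolic and 5.07 in the mitochondrial set, and the highest left out at 2.19 and 3.08. Symbols found only on probe sets that list several genes, 15 cytosolic and 2 mitochondrial, have no value of their own here.

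All tumours were subcutaneous xenografts of 1 line, NCI-H2228, established from a human lung adenocarcinoma with the EML4-ALK fusion and carried by SCID mice, which lack mature T and B cells. The 3 groups are vehicle, 4 mg/kg and 20 mg/kg of CH5424802, later named alectinib, given once, with 2 arrays each. Nothing in the labels says whether a group's arrays stand for separate mice, so the p-values describe the spread among arrays, and that spread may be technical. The samples are labelled as mouse, but the probe sets are human; how transcripts of the host read on them, where cytosolic ribosomal proteins of both species are very close in sequence, was not measured. All 9 epithelial and lung tumour markers were above the level minimum, and their summed intensity ran from 65706 to 75219 at 20 mg/kg, against 76727 to 85143 with vehicle. KRT18 was the 1 marker past the test, as lower (log2 -1.54), a call lost without any 1 of the 6 arrays. Of the 9 differences 5 were negative and 4 positive. Both 20 mg/kg arrays were below both vehicle arrays for 5 markers and above them for 2 (25.9% and 24.5% of all tested genes). Of 5 macrophage and leukocyte markers with a probe set 4 were under the minimum, CD163 at the floor, and the sum of the 5 ran from 78.0 to 79.3 at 20 mg/kg, against 79.6 to 81.9 with vehicle. Of 6 fibroblast markers 4 were above it and none passed the test, with sums from 35251 to 39710 at 20 mg/kg, against 36009 to 38573 with vehicle, and PDGFRB at the floor. The part of the epithelial sum in the results was not tested. In bulk tumour RNA fewer cells of a type and less RNA per cell cannot be told apart.

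The cytosolic ribosome translates transcripts of nuclear genes. Its protein genes are among the most highly transcribed in any cell, and many of their transcripts begin with a terminal oligopyrimidine tract through which mTORC1 controls their translation rather than their amount. The mitochondrial ribosome translates the few proteins that the mitochondrial genome encodes, all of them parts of the respiratory chain and ATP synthase, and its own proteins are encoded in the nucleus, translated in the cytosol and imported. The transcription factor MYC is known to drive genes of both machineries in many cells.

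The comparison of dose groups asks how far the transcripts of the 2 ribosomes differ with the inhibitor. Mitochondrial ribosomal protein transcripts lay lower at 20 mg/kg than with vehicle, with a median log2 difference of -0.25, 1.19-fold, over the 72 genes. Cytosolic ribosomal protein transcripts had a median of -0.01 over the 57 genes, against 0.00 for all tested genes. At 4 mg/kg against vehicle the medians were -0.04 (mitochondrial) and -0.02 (cytosolic), and for 20 against 4 mg/kg they were -0.19 and -0.01. Few single genes passed the test in any comparison. Both comparisons with vehicle share the vehicle arrays.

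**Figure D1:**
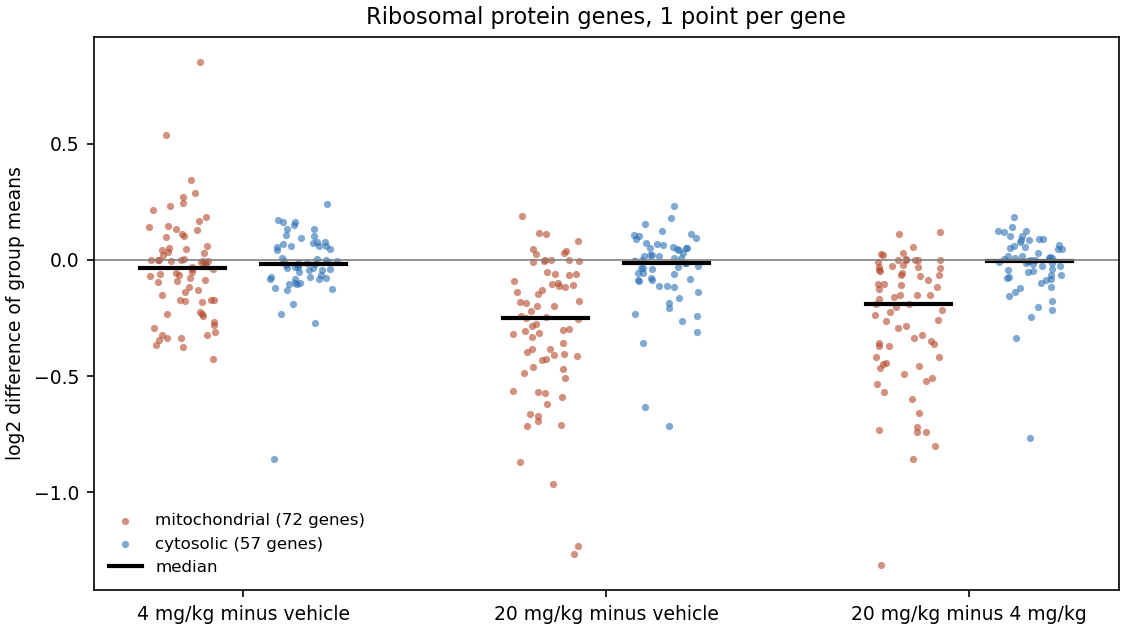
Log2 difference of group means (vertical axis) for each mitochondrial (left of each pair) and cytosolic (right) ribosomal protein gene in the 3 comparisons, 1 point per gene, with the set median as a bar. The mitochondrial medians are -0.04, -0.25 and -0.19 from left to right, and the cytosolic ones -0.02, -0.01 and -0.01.

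Of the 72 mitochondrial genes, 63 had a negative difference at 20 mg/kg against vehicle, 8 a positive one and 1 none, and the interquartile range ran from -0.44 to -0.08. The arrays did not overlap in 47 of them: both 20 mg/kg arrays were below both vehicle arrays for 44 genes (61.1%, against 25.9% of all tested genes) and above them for 3 (24.5% of all tested genes). Differences of at least 0.5 on the log2 scale downward were found for 15 mitochondrial genes, 20.8%, against 8.51% of all tested genes, and upward for none. The 20 mg/kg arrays lay below all 4 other arrays for 30 mitochondrial genes (41.7%, against 15.2% of all tested genes) and above all 4 for none (10.1%). The group means were stepwise lower over vehicle, 4 and 20 mg/kg for 37 genes, 51.4%, against 22.7% of all tested genes.

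The MRPL and the MRPS genes, split by symbol alone and not by their place in the ribosome, both had lower medians. The 46 MRPL genes had a median of -0.28 and the 26 MRPS genes a median of -0.23. Both 20 mg/kg arrays were below both vehicle arrays for 27 and 17 of them. Only 1 of the 72 genes, MRPL47, passed the limma test (adjusted p under 0.05; 2.07% of all tested genes passed it as lower, 2.26% as higher and 4.33% in either direction), and at an unadjusted p under 0.05, 19 were lower and 2 higher, where 11.5% and 12.7% of all tested genes were. The share that passed, 1 of 72, is no higher than the background. Without vehicle replicate 1 the median over the 72 genes was -0.30, and without vehicle replicate 2 it was -0.19. Without 20 mg/kg replicate 1 it was -0.22, and without 20 mg/kg replicate 2 -0.35.

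Among the 57 cytosolic genes 31 differences were negative and 26 positive at 20 mg/kg against vehicle. This split was 39 and 18 with arrays centred on their median and 28 and 29 after a further quantile normalization. The median of all tested genes was -0.032 with centred arrays and -0.028 after quantile normalization. As given, the interquartile range of the cytosolic differences ran from -0.09 to 0.05. Both 20 mg/kg arrays were below both vehicle arrays for 21 genes (36.8%, against 25.9% of all tested genes) and above them for 13 (22.8%, against 24.5%). The 36 large subunit genes had a median of -0.03 and the 21 small subunit genes a median of 0.02. Downward differences of at least 0.5 were found for 2 genes, RPL27A and RPL39L (3.51%, against 8.51% of all tested genes), and upward ones for none (12.1%). RPL3 was the 1 gene past the test, as lower, again near the background, and at an unadjusted p under 0.05, 10 were lower and 3 higher (11.5% and 12.7% of all tested genes).

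**Figure D2:**
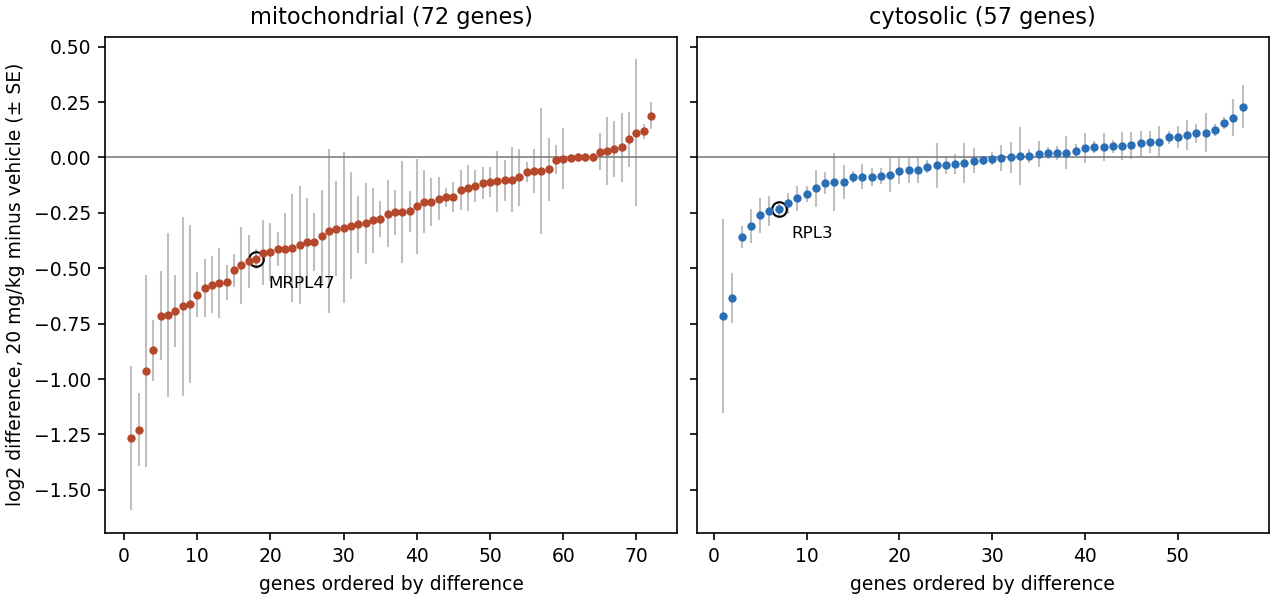
Log2 difference between 20 mg/kg and vehicle (vertical axis, with limma's SE as a bar) for the 72 mitochondrial and 57 cytosolic genes, each ordered by difference along the horizontal axis. Circles mark MRPL47 and RPL3, the genes past the test, and 63 mitochondrial against 31 cytosolic differences lie below 0.

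The sets were also set side by side within each array, as the median over members of the log2 deviation from each gene's mean over the 6 arrays. For the mitochondrial set the vehicle arrays had 0.02 and 0.15, the 4 mg/kg arrays -0.03 and 0.12, and those at 20 mg/kg -0.18 and -0.09. For the cytosolic set it lay between -0.03 and 0.03 in all 6 arrays. Both 20 mg/kg arrays thus had lower mitochondrial medians than the other 4, while the vehicle and 4 mg/kg arrays overlapped. The mitochondrial minus the cytosolic median was -0.17 and -0.08 in the 20 mg/kg arrays, and between -0.0024 and 0.11 in the other 4.

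**Figure D3:**
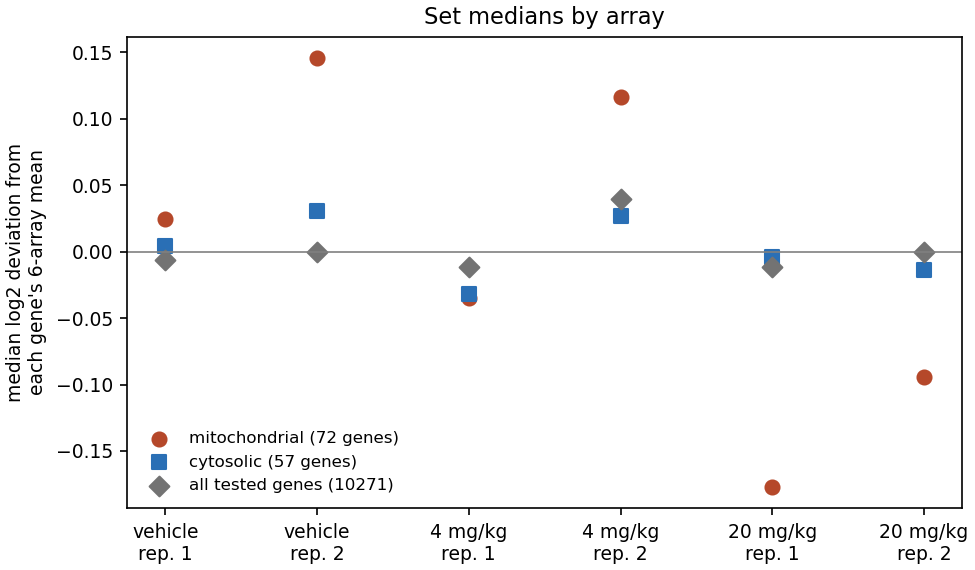
Median log2 deviation from each gene's mean over the 6 arrays (vertical axis) in each array, for the mitochondrial set, the cytosolic set and all tested genes. The mitochondrial medians at 20 mg/kg are -0.18 and -0.09, and the cytosolic ones stay between -0.03 and 0.03.

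Vehicle replicate 2 had the highest mitochondrial median, and leaving it out moved the 20 mg/kg against vehicle median to -0.19. All 3 of the array's 18S ribosomal RNA controls were brightest in it. For the brightest of these, vehicle arrays had 1713 and 4058, the 4 mg/kg arrays 489 and 374, and those at 20 mg/kg 573 and 637. Of the 3 controls for 28S, 1 had vehicle arrays at 6112 and 7690.3, 4 mg/kg arrays at 3283 and 4130.2, and 20 mg/kg arrays at 4935 and 5218, while the other 2 were equal in at least 5 of the 6 arrays. The controls that varied were thus lowest at 4 mg/kg, or about as low there as at 20 mg/kg. Whether they are related to the mitochondrial medians was not tested. Cytosolic probe sets were bright, with a median mean log2 of 13.88 and up to 15.22, where the brightest probe sets of the arrays reached 42429 to 47036; mitochondrial ones had a median of 9.31. Whether differences are compressed at the bright end was not tested.

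MRPL47, a protein of the large subunit, was the mitochondrial gene past the test. Vehicle arrays read 3133 and 3172, the 4 mg/kg arrays 3034 and 3272, and those at 20 mg/kg 2268 and 2318. The 20 mg/kg arrays were thus below all others, with 1.37-fold lower intensity than vehicle (log2 -0.46, SE 0.05, limma adjusted p = 0.035, n = 2 arrays per group). The call was lost without either vehicle array (adjusted p = 0.0699 without replicate 1 and 0.128 without replicate 2) and without either 20 mg/kg array (0.165 and 0.133). Its second probe set gave -0.06.

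The largest mitochondrial differences did not pass. MRPL12 forms the flexible stalk of the large subunit that recruits translation factors, and it also binds the mitochondrial RNA polymerase. Vehicle arrays read 156 and 168, the 4 mg/kg arrays 132 and 109.9, and those at 20 mg/kg 61.1 and 77.8. It was thus stepwise lower with no overlap of any groups, 2.34-fold at 20 mg/kg against vehicle (log2 -1.23, SE 0.16, limma adjusted p = 0.0508). Its second probe set was at the floor in all arrays. MRPL17, another large subunit protein, read 17.5 and 23.1 at 20 mg/kg, against 43.8 and 53.3 with vehicle (log2 -1.27, SE 0.33, limma adjusted p = 0.13), while at 4 mg/kg it was 38.6 and 64.5.

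MRPL36, a short protein of the large subunit, read 1088 and 1275 at 20 mg/kg, against 2052 and 2258 with vehicle (log2 -0.87, SE 0.14, limma adjusted p = 0.0639). At 4 mg/kg it read 1799 and 2156 and overlapped vehicle. MRPL3, whose bacterial counterpart lies near the peptidyl transferase centre, had vehicle arrays at 6160.4 and 5554, 4 mg/kg arrays at 5945 and 6614, and 20 mg/kg arrays at 3590.4 and 4035. Its difference was -0.62 against vehicle (limma adjusted p = 0.0671) and -0.72 against 4 mg/kg (limma adjusted p = 0.119). For both genes the 20 mg/kg arrays stood apart and the others did not.

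**Figure D4:**
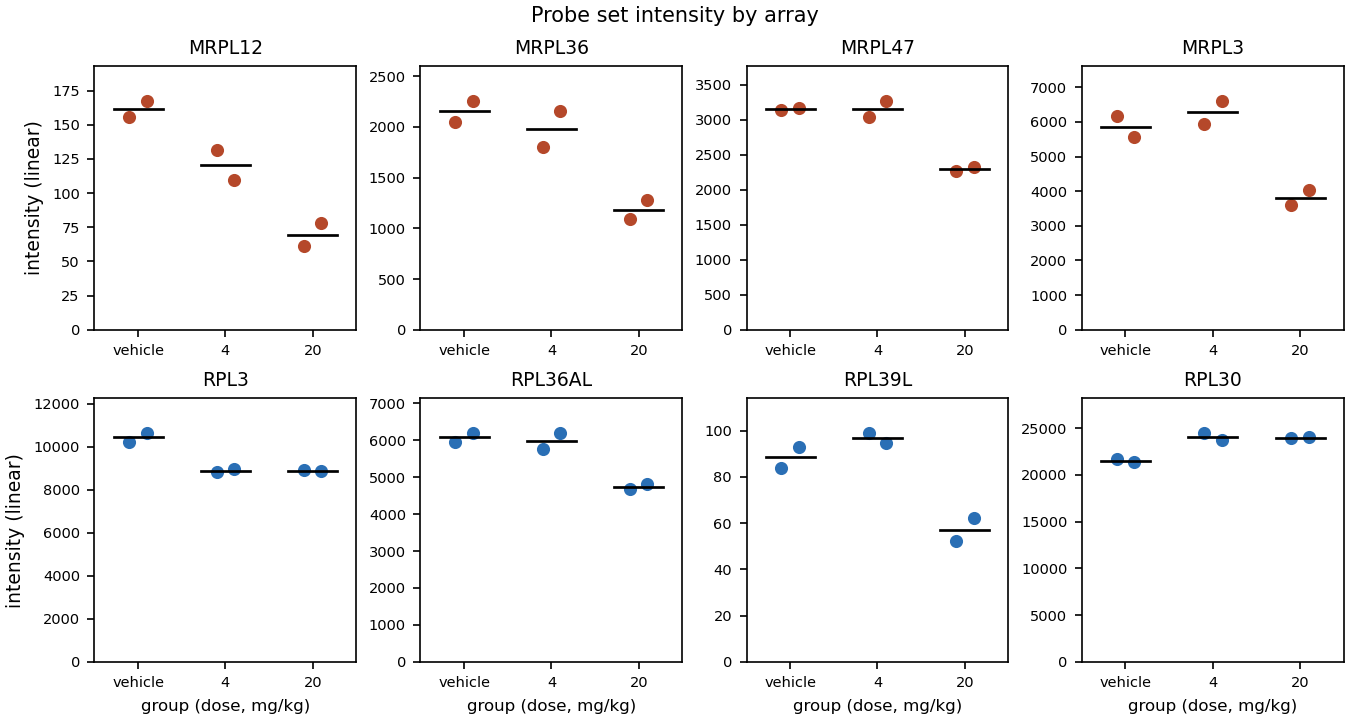
Probe set intensity on a linear scale (vertical axis, starting at 0) in vehicle, 4 mg/kg and 20 mg/kg tumours for 4 mitochondrial (upper row) and 4 cytosolic (lower row) genes; points are arrays and bars are means of 2. MRPL12 steps down over the groups, MRPL36, MRPL47 and MRPL3 are low at 20 mg/kg alone, and RPL3 is low at both doses.

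Of the 26 MRPS genes 5 were at least 0.5 lower, none past the test: MRPS26 (log2 -0.97, SE 0.43), MRPS7 (-0.71, SE 0.20), MRPS23 (-0.66, SE 0.36), MRPS17 (-0.59, SE 0.13) and MRPS12 (-0.56, SE 0.08). MRPS26 read 70.5 and 42.4 at 20 mg/kg, against 79.6 and 143 with vehicle, with 1 of the 4 mg/kg arrays also at 79.6, so its spread was wide. MRPS7, the counterpart of the bacterial protein that organises the head of the small subunit, read 490 and 568 at 20 mg/kg, against 762 and 983 with vehicle. The 3 MRPS18 paralogs, relatives of 1 bacterial protein, had log2 differences of -0.43 (MRPS18A), -0.19 (MRPS18B) and -0.11 (MRPS18C), none past the test. The second probe set of MRPS18B read 226 and 244 at 20 mg/kg, against 187 and 244 with vehicle, so it was not lower there. At 4 mg/kg against vehicle the first and second probe sets of MRPS18B gave -0.24 and 0.45.

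Some mitochondrial genes ran the other way. MRPL30 read 1919 and 1818 at 20 mg/kg, against 1627 and 1650 with vehicle (log2 0.19, SE 0.06), and MRPL33 was at 0.12 (SE 0.04), both with no overlap and neither past the test. The second probe set of MRPL30 gave -0.05. MRPL19 read 654 and 762 at 4 mg/kg, against 527 and 290 with vehicle (log2 0.85, SE 0.33, limma adjusted p = 0.336), and was at 0.11 for 20 mg/kg against vehicle. The vehicle arrays of MRPL19 lay far apart, so neither value has a firm base.

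Genes around 2 sites of the large subunit were set side by side, chosen for their position after the values had been seen. At the base of the stalk that carries MRPL12, MRPL10 was at -0.01 (SE 0.07) for 20 mg/kg against vehicle and MRPL11 at 0.00, with MRPL11 at an equal 276 in all 6 arrays. Around the exit of the peptide tunnel the differences were -0.24 (SE 0.09) for MRPL22, -0.43 (SE 0.13) for MRPL23, -0.12 (SE 0.07) for MRPL24 and -0.05 (SE 0.14) for MRPL45. None of these passed the test, and differences among them were not tested.

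Of the cytosolic genes, RPL3, which reaches towards the peptidyl transferase centre, read 8908 and 8874 at 20 mg/kg, against 10239.8 and 10655 with vehicle (log2 -0.23, SE 0.03, limma adjusted p = 0.0475, n = 2). At 4 mg/kg it read 8811 and 8964, likewise below both vehicle arrays (log2 -0.23, limma adjusted p = 0.15). The call at 20 mg/kg was lost in 5 of the 6 fits that left out 1 array, among them those without vehicle replicate 2 (adjusted p = 0.0948), either 4 mg/kg array (0.0969) or a 20 mg/kg array (0.19 and 0.171). Its probe set is one that may cross-hybridise.

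Other large subunit genes were lower without passing. RPL8 read 13171 and 13972 at 20 mg/kg, against 15872 and 17797 with vehicle (log2 -0.31, SE 0.08), and RPL14 was at -0.26 (SE 0.08), with -0.37 on its second probe set. RPL27A had the largest difference, log2 -0.72, but an SE of 0.44. Its 4 mg/kg arrays read 227 and 514, so its spread was wide.

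The highest positive differences at 20 mg/kg against vehicle were in RPS27L (log2 0.23), RPL32 (0.18), RPL30 (0.16), RPS29 (0.12) and RPL12 (0.11), none past the test. RPL30, a protein of the large subunit, had vehicle arrays at 21717 and 21357, 4 mg/kg arrays at 24526 and 23692, and 20 mg/kg arrays at 23977 and 24032. RPS29 read 17039 and 16605 at 20 mg/kg, against 15290.1 and 15577 with vehicle. Both genes were thus above vehicle at either dose with no overlap, and the differences were small.

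Paralogs of cytosolic ribosomal proteins ranged from -0.63 to 0.23 at 20 mg/kg against vehicle. RPL39L, a paralog of RPL39 that is best known from the testis, had vehicle arrays at 83.9 and 93.2, 4 mg/kg arrays at 99.2 and 94.9, and 20 mg/kg arrays at 52.3 and 62.1. The 20 mg/kg arrays lay below all others, at log2 -0.63 against vehicle (1.55-fold, SE 0.11, limma adjusted p = 0.0754) and -0.77 against 4 mg/kg (limma adjusted p = 0.121), while RPL39 itself was at 0.09. RPL36AL, an intronless copy of RPL36A, read 4666 and 4811 at 20 mg/kg, against 5952 and 6196 with vehicle (log2 -0.36, SE 0.05, limma adjusted p = 0.0553). RPL36A had its probe set at the array's floor intensity of 4.58 in all 6 arrays, as had RPL3L, RPLP2 and RPS4Y1, so no comparison of RPL36A with its copy was possible.

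For the other pairs RPL26L1 was at -0.21 (SE 0.05) and RPL7L1 at -0.14 (SE 0.08), with RPL7 at 0.06. RPL22 and RPL22L1, which can substitute for each other, were at 0.05 and 0.02. RPS27L, a p53 target gene, was at 0.23 (SE 0.10) and RPS27 at 0.05; their second probe sets gave -0.09 and -0.33. RPS4X was at -0.06, and RPL10L, a copy of RPL10 used in male germ cells, at -0.01. The RPL10L probe set read an equal 30.3 in every array but vehicle replicate 2, at 30.8, so its difference says little. None of these passed the test.

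At 4 mg/kg against vehicle no member of either set passed, where 6 genes, 0.0584% of all tested genes, did (0.0292% higher and 0.0292% lower). At an unadjusted p under 0.05 the mitochondrial set had 1 gene higher and 1 lower and the cytosolic set 5 higher and 4 lower, where 12.2% and 4.76% of all tested genes were. Without 4 mg/kg replicate 2 the mitochondrial median was -0.13. Both 4 mg/kg arrays were below both vehicle arrays for 14 mitochondrial genes (19.4%, against 14.8% of all tested genes) and above them for 6 (22.8% of all tested genes). For the cytosolic set the counts were 17 (29.8%) and 14 (24.6%). The largest differences were in MRPL12 (log2 -0.43, SE 0.16), MRPL9 (-0.38, SE 0.16) and MRPL41 (-0.37, SE 0.16) downward and MRPL19, MRPL57 (0.54, SE 0.28) and MRPL42 (0.34, SE 0.12) upward. The second probe set of MRPL42, nearly as bright, did not show the rise: it read 679 and 935 at 4 mg/kg, against 892 and 766 with vehicle. In the cytosolic set RPL27A (-0.86), RPL14 (-0.27), RPL3, RPL8 (-0.19) and RPS14 (-0.13) were the lowest, and RPS27L (0.24), RPS19 (0.17), RPS7 and RPL30 (both 0.16) the highest.

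At 20 against 4 mg/kg, 63 of 72 mitochondrial differences were negative and 7 positive. This split was 49 and 23 with centred arrays and 50 and 22 after quantile normalization, with a median of -0.12 in both. The median of all tested genes moved as well, from -0.0058 as given to 0.061 with centred arrays and 0.018 after quantile normalization. No member of either set passed the limma test, where 0.37% of all tested genes did (0.127% higher and 0.243% lower). At an unadjusted p under 0.05 the mitochondrial set had 11 genes lower and none higher, and the cytosolic set 4 lower and 2 higher, where 8.79% and 4.62% of all tested genes were. Both 20 mg/kg arrays were below both 4 mg/kg arrays for 36 of the 72 mitochondrial genes (22.8% of all tested genes) and above them for 1 (13.6%). In the cytosolic set the counts were 19 lower and 9 higher. The lowest mitochondrial differences were in MRPL17 (log2 -1.31, SE 0.33), MRPL58 (-0.86, SE 0.41), which releases peptides from stalled ribosomes, MRPL12 (-0.80, SE 0.16), MRPL36 (-0.74, SE 0.14) and MRPL19 (-0.74, SE 0.33). Leaving out 4 mg/kg replicate 2 gave a mitochondrial median of -0.069, and leaving out 4 mg/kg replicate 1 gave -0.28. The 20 mg/kg arrays are shared with the comparison against vehicle.

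Other genes of translation were read from lists. Of 15 measured elongation factors and other genes with terminal oligopyrimidine transcripts, 1 rose at 20 mg/kg against vehicle (2.26% of all tested genes did) and none fell (2.07%), with a median of -0.01. The gene that rose was EIF4B, a cofactor of the helicase EIF4A, which read 2685 and 2500.3 at 20 mg/kg, against 1931 and 1810.4 with vehicle (log2 0.47, SE 0.05, limma adjusted p = 0.0404). Its next brightest probe set gave 0.14, and the call was lost without any 1 of the 6 arrays (adjusted p from 0.0558 to 0.154). FAU, which encodes a small subunit protein, was at -0.12.

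Of 21 measured initiation factors, 3 fell at 20 mg/kg against vehicle (2.07% of all tested genes did) and none rose (2.26%). Their differences were negative for 18, where 52.7% of all tested genes had a negative one, and the median was -0.37. EIF4G1, the scaffold of the cap-binding complex, read 3015 and 2909 at 20 mg/kg, against 4476 and 4711 with vehicle (log2 -0.63, SE 0.04, limma adjusted p = 0.019). EIF3B (log2 -0.72, SE 0.09) and EIF3I (log2 -0.28, SE 0.02), subunits of the factor that binds the small ribosomal subunit, also fell. EIF3B was at -0.12 once cross-hybridising probe sets were removed. All 3 calls were lost without vehicle replicate 2 (adjusted p = 0.0529 for EIF4G1, 0.113 for EIF3B and 0.0553 for EIF3I) and without either 4 or either 20 mg/kg array. Among 8 measured genes through which mTORC1 regulates translation 1 fell (2.07% of all tested genes did), EIF4EBP1, the repressor of cap-dependent initiation (log2 -0.51, SE 0.02, limma adjusted p = 0.0112), with a list median of -0.08. This call was lost without either 20 mg/kg array (adjusted p = 0.0752 and 0.0697).

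Of 24 measured mitochondrial translation and ribosome assembly factors 1 fell, a share near the 2.07% of all tested genes. This was SLIRP, a partner of LRPPRC that stabilises mitochondrial transcripts, which read 4454 and 4402 at 20 mg/kg, against 5935 and 5695 with vehicle (log2 -0.39, SE 0.03, limma adjusted p = 0.0243). The list's median was -0.025. Of 4 measured mitochondrial ribosome proteins outside the symbol rule none passed, and their median was -0.04, beside -0.25 for the MRPL and MRPS genes. MYC fell to 167 and 187 at 20 mg/kg, against 919 and 1180.4 with vehicle (log2 -2.56, SE 0.15, limma adjusted p = 0.0174), and its part in the ribosomal values was not tested. The SLIRP and MYC calls were lost without either 4 mg/kg array (adjusted p = 0.0682 and 0.0639) and without either 20 mg/kg array (0.118 and 0.106 for SLIRP, 0.102 and 0.0888 for MYC).

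The probe sets limit the reading. Of the cytosolic members 43, and of the mitochondrial members 41, rest on probe sets that may cross-hybridise with related transcripts, which for ribosomal proteins include many processed pseudogenes. For the 21 mitochondrial genes with a second probe set above the level minimum, the 20 mg/kg against vehicle median was -0.19 on the first and -0.01 on the second, and 8 genes had opposite signs. Of the 72 mitochondrial genes 16 were called at 20 mg/kg against vehicle, all lower, after a further quantile normalization and with arrays centred on their median. The count was 1 as given and 0 with no level filter. Of all 10271 tested genes 757 were called lower after quantile normalization and 935 with centred arrays, against 213 as given.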

How the data were processed

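Tumour RNA was read on 6 human expression arrays, 2 in each of 3 dose groups, grouped by the samples' titles. The deposited table gives linear intensity for 54675 probe sets, and the submitters' processing notes name GCRMA and R 2.10.0. GCRMA includes a sequence-based background correction, quantile normalization and median polish; the arrays that entered it jointly are not named in the sources used here. The number of arrays limits the precision.

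Intensities were converted to log2. Symbols came from the platform annotation (41097 probe sets with 1 gene, 1801 with several, 11777 with none listed). limma 3.58.1 in R 4.3.3 (lmFit, eBayes) was fitted over all 6 arrays and 10271 genes, two-sided, with Benjamini-Hochberg adjustment over all tested genes within each of 3 comparisons and a threshold of 0.05. It had 3 residual and 0.723 prior degrees of freedom, and each SE is pooled over the 3 groups. The steps were tested on simulated data. Of the tested genes 3316 had equal values (within 1e-06) in both arrays of at least 1 group, 531 of them in all 3; without those 531 the prior degrees of freedom were 1.44.

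The members and lists were chosen with earlier results of these data known, so no test was made over a list. Genes were named from those past the threshold and the 5 largest differences in each direction per set and comparison. They were also named from fixed paralogs, members whose second probe set differs in sign, and genes of the other lists past the threshold. Not every gene that met these rules is named. Others named are said to be chosen after their values were seen or are given for their role. Alternatives covered the level filter, a pseudocount, scaling, probe set choice, the replicate block and leaving out each array. The replicate numbers were checked for pairing: the replicate 1 minus replicate 2 differences correlated over all tested genes at 0.13, -0.12 and 0.15 between groups. The numbers were therefore not taken to pair the arrays, although the mitochondrial set median was higher in replicate 2 than in replicate 1 of every group. Sequences of human genes were not used here.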

Additional observations from a re-analysis of the deposited data

How the results depend on the processing

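Over the alternatives run, none of 1362 recomputed values of named genes changed direction with a call, 81 lost and 30 gained a call, 44 changed sign without one, and 1207 kept both. Of the 15 alternatives for each, the call of MRPL47 was lost in 8 and that of RPL3 in 12. The cause was not tested.

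For 20 mg/kg against vehicle the cytosolic genes called were 0 with no level filter, with the replicate block, with the next brightest probe set and with cross-hybridising probe sets removed, and 2 with centred arrays or the mean of probe sets. The mitochondrial count was 0 in the same 4 settings, 5 of 70 with the stricter filter, and 2 with log2(value + 16) or the mean of probe sets. It was 16 of 72 after quantile normalization or with centred arrays. After removal of genes tied in every group, an alternative chosen after seeing the data, it was 6 of 69. All these calls were lower. The count of all genes, 445 of 10271 as given (213 lower), was 1958 with centred arrays (935 lower) and 1598 after quantile normalization (757 lower). It was 449 with log2(value + 16), 93 with the replicate block and 57 of 19775 with no filter. With the stricter filter it was 645 of 8457 (307 lower), with the mean of probe sets 474 of 8884 and with the next brightest probe set 207 of 7247. It was 282 of 7356 with cross-hybridising probe sets removed and 819 of 9740 without tied genes (360 lower). Leaving out 1 array gave 5 to 802 genes, 0 to 1 cytosolic and 0 to 4 mitochondrial.

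The cytosolic median was -0.044 with centred arrays, beside -0.032 for all tested genes, and 0.0052 after quantile normalization, beside -0.028. It was -0.052 with the next brightest probe set and -0.062 with cross-hybridising probe sets removed, and ran from -0.050 to 0.0021 when 1 array was left out. The mitochondrial median was -0.16 with the next brightest probe set and ran from -0.35 to -0.19 when 1 array was left out. In the next brightest setting genes of either set with only 1 probe set kept it, so many values were unchanged. Over the 21 mitochondrial genes with a second probe set above the level minimum the median on it was -0.01.

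For 4 mg/kg against vehicle all genes called, 6 as given, were 3 with no filter, 111 after quantile normalization, 766 with centred arrays and 0 with the stricter filter, log2(value + 16), the next brightest or mean probe set, the replicate block and without tied genes. Leaving out 1 array gave 0 to 475 genes and 0 to 1 in each set. Centred arrays moved the medians to -0.11 (cytosolic) and -0.13 (mitochondrial), beside -0.10 for all tested genes, and quantile normalization moved the mitochondrial one to -0.11 (17 higher, 55 lower), beside -0.055. The cytosolic split, 23 higher and 34 lower as given, was 9 and 48 with centred arrays. Without 1 array they ran from -0.038 to 0.025 and from -0.13 to 0.00.

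For 20 against 4 mg/kg all genes called, 38 as given, were 8 with no filter, 20 with the next brightest probe set, 494 with centred arrays, 330 after quantile normalization, 0 with the replicate block and 77 without tied genes. The higher and lower calls were 13 and 25 as given, 155 and 175 after quantile normalization and 227 and 267 with centred arrays; for 4 mg/kg against vehicle they were 3 and 3, 72 and 39, and 517 and 249. After quantile normalization 1 cytosolic and 2 mitochondrial genes were called, with centred arrays 1 and 4. The cytosolic median was 0.062 with centred arrays (42 higher, 15 lower, against 27 and 30 as given), beside 0.061 for all tested genes, and 0.013 after quantile normalization. The mitochondrial one was -0.10 with the next brightest probe set, and -0.06 over the 21 genes with a second one above the level minimum. Leaving out 1 array gave 0 to 218 genes, 0 cytosolic, 0 to 3 mitochondrial, and medians from -0.038 to 0.024 and from -0.28 to -0.069. The number of arrays limits the precision.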

Other observations

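Probe sets that list a cytosolic ribosomal protein together with other genes were outside the comparisons because they name no single gene. Of 65 such probe sets 51 had a mean log2 of at least 4. Their median log2 difference was -0.03 at 20 mg/kg against vehicle, with 33 lower and 16 higher and a range from -0.40 to 0.54. It was -0.04 at 4 mg/kg against vehicle and 0.02 for 20 against 4 mg/kg. These values were not tested.

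MRPS25 had the widest gap between its probe sets: the brighter one was at 0.00 at 20 mg/kg against vehicle and the other, at a mean log2 of 4.69, at 1.28. In the same comparison the first and second probe sets gave -0.31 and 0.18 for MRPL50 and -0.25 and 0.20 for MRPS10. In the cytosolic set RPS24 was at 0.12 and -0.72 on its first and second probe sets for 20 against 4 mg/kg.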
